A study of Mus musculus with 14 samples.

Results

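The genotype dependence of the MRL5 effect was the subject: for each gene, the difference between MRL5 and DMSO in GX mice minus the same difference in WT mice. MRL5 is a compound of the GX family that, per the study's design text, inhibits the mutant cardiac sodium channel carried by GX mice. It is known here by its code name alone. All 14 libraries of the series entered, and the members are all 14156 genes tested of the 14161 in the deposited table, separated by the genotype in which each one moved. Male mice that were GX/GX (the mutant channel on both alleles) or WT/WT received DMSO, the vehicle, or MRL5 in it by intraperitoneal injection, and polyadenylated RNA of the ventricles was sequenced 4 hours later. The groups were GX DMSO (4 libraries), GX MRL5 (5 libraries), WT DMSO (3 libraries) and WT MRL5 (2 libraries). For GX MRL5 the design text counts 4 animals and the labels 5, and all 5 were used. Ages and strain are not stated in these sources, and each library carries its own mouse number.

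The voltage-gated sodium channel of cardiomyocytes carries the inward current that starts each ventricular action potential. A compound directed at an engineered channel is compared in WT and mutant animals because an effect that needs the mutant channel should be found in the mutants and not in WT. An effect of the compound on other targets could appear in both genotypes. The interaction asks this gene by gene: it is 0 where MRL5 and DMSO differ equally in both genotypes.

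The values are signal that the table's header calls scaled reads per base, so they are not counts, and the read depth is unknown. Column sums lay between 17244042 and 22163644 and mitochondrial transcripts took 38.9% to 49.7% of them. Ventricular markers were high in every library, with Tnnt2 at 148000 to 197000. Some libraries stood apart. WT DMSO 2 held the atrial light chain Myl7 at 3967, GX DMSO 3 at 643 and GX MRL5 4 at 133, against 0 to 20.7 in the other 11. GX MRL5 3 held the heat shock gene Hspa1a at 53380, against 149 to 1187 elsewhere. The library names form 2 numbered sets: set 174 holds WT DMSO 2, WT DMSO 3 and GX MRL5 4, and set 148 holds the other 11. Both WT MRL5 libraries are therefore in set 148, while 2 of 3 WT DMSO libraries are in set 174. In GX, set 174 occurs only in the MRL5 group. A difference between the sets would thus enter the GX and WT effects with opposite signs. Results with library set as a covariate and in set 148 alone are given below. Over 91 pairs of libraries the SD of the log2 differences across genes had a median of 0.629, and the lowest values joined libraries of different groups: GX MRL5 4 with WT DMSO 2 at 0.486, and GX DMSO 1 with GX MRL5 1 at 0.487. The libraries of the first pair are both in set 174, and both held raised Myl7. WT MRL5 1, which is 1 of only 2 WT MRL5 libraries, had 0.662 to 0.811 over its 13 pairs, including the highest of all pairs.

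No gene was called for the interaction. By limma, 0 of 14156 genes (0%) had an adjusted p under 0.05, and the smallest adjusted p was 0.185, shared by Nsd2 and Lcn2. An unadjusted interaction p under 0.05 was found for 904 genes (6.39%), beside the 5% that a uniform spread of p-values would give. It was positive (MRL5 minus DMSO higher in GX than in WT) for 438 genes (3.09%) and negative for 466 genes (3.29%). In the same fit, MRL5 against DMSO had an unadjusted p under 0.05 for 585 of the 14156 genes in GX and 799 in WT. Of all tested genes, 3.79% had this in GX alone and 5.31% in WT alone. In both genotypes it was 0.212% with opposite signs and 0.127% with the same sign. The GX share was thus below that 5%, and the WT share slightly above it. The median SE of a log2 effect was 0.154 in GX, 0.21 in WT and 0.26 for the interaction. Most of the single genes described here were picked for a small interaction p in these same libraries. A large difference relative to its error therefore follows from that choice. No single gene described here passed the test over all genes.

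The 904 genes were separated by their effect inside each genotype at an unadjusted p under 0.05. The GX only class (p under 0.05 in GX and not in WT) held 173 genes, 1.22% of those tested. The WT only class held 415 genes, 2.93%. The opposite class, with p under 0.05 in both genotypes and opposite signs, held 30 genes, 0.212%. No gene of the 904 had p under 0.05 in both with the same sign, and 286 had it in neither. Over all tested genes, whatever the interaction, 18 had p under 0.05 in both genotypes with the same sign and 30 with opposite signs. The GX and WT effects share no library, and across all 14156 genes their Pearson correlation was -0.119 and Spearman's -0.137. This is a description over genes, which are not independent replicates. Of the 904 genes, 876 had effects of opposite sign, which a large interaction favours by its construction, against 56.4% of all tested genes. The genes nearest the limit of 0.05 were Tmem138 and Lsm6 (0.04994 and 0.04997) inside it, and Hnrnpul1 and Tubg1 (0.05006 and 0.05009) outside.

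**Figure D1:**
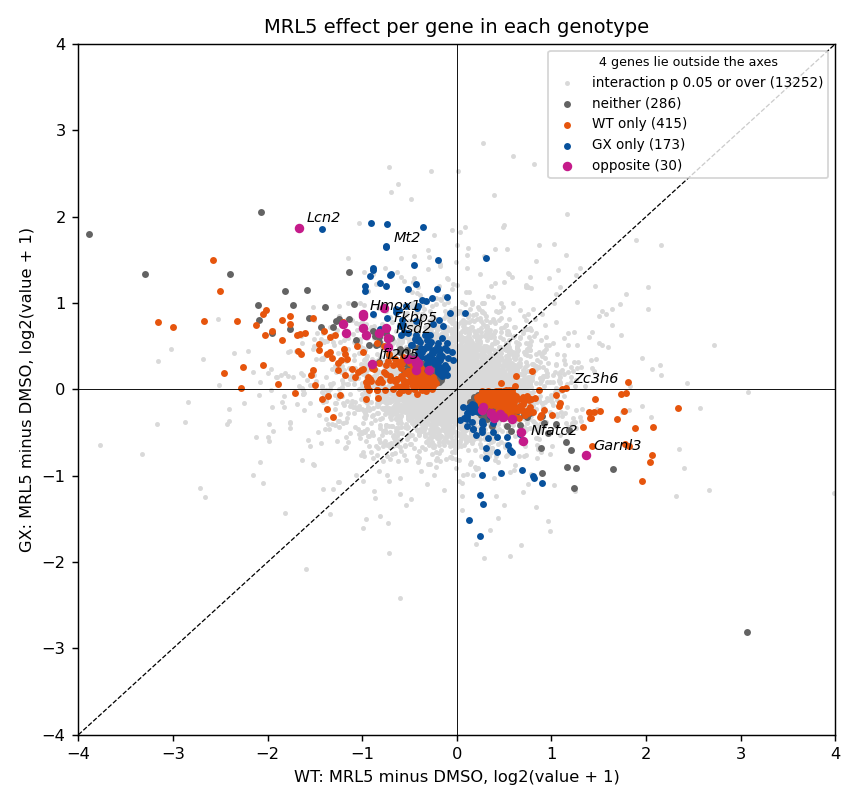
Each point is 1 tested gene, with MRL5 minus DMSO in WT on the x axis and in GX on the y axis, both as differences of group means of log2(value + 1). Colours mark the classes of the 904 genes with an unadjusted interaction p under 0.05, the dashed line marks equal effects, and 4 genes lie outside the axes. The 30 genes of the opposite class lie in the upper left (19 genes) and the lower right (11 genes), with Lcn2 at -1.67 in WT and 1.87 in GX.

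The opposite class was led by Nsd2, Lcn2, Ifi205 and Fkbp5. Of its 30 genes, 19 were higher with MRL5 in GX and lower with MRL5 in WT, and 11 the reverse. The interactions ran from 0.475 to 3.54 in size on the log2 scale. The upstream sequences of Lcn2, Fkbp5 and Ifi205, genes of unlike function that took the same arrangement over the groups, are given first, as the 250 bases before the RefSeq start on GRCm38.p6, 5′ to 3′ on the gene's strand. Capitals mark a match to 1 of 9 motifs searched on both strands. Lcn2 lies on the minus strand with its window at chr2:32387740-32387989, Fkbp5 on the minus strand at chr17:28486150-28486399, and Ifi205 on the minus strand at chr1:174031756-174032005.
Lcn2: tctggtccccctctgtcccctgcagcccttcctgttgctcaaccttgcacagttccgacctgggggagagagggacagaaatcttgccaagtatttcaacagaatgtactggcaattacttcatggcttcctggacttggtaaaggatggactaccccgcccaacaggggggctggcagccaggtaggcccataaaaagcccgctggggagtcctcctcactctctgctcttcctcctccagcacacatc
Fkbp5: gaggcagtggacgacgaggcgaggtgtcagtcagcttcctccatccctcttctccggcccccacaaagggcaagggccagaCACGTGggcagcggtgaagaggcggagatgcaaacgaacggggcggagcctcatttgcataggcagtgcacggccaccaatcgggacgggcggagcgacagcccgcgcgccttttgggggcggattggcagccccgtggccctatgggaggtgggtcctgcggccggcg
Ifi205: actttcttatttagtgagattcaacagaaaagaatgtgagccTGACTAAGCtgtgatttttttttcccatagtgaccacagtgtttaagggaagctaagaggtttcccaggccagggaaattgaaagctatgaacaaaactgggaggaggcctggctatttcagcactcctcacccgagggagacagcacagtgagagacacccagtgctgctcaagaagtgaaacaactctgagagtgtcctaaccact
In the Fkbp5 window the capitals are the E-box CACGTG, 169 to 164 bases before the start, which 6.02% of all 32851 windows hold. In the Ifi205 window they are a match to the antioxidant element TGACNNNGC, 208 to 200 bases before the start, which 10.2% of windows hold. The Lcn2 window held none of the 9. The others searched were the D-box TTATGTAA (0.819% of windows), AP-1 TGANTCA (6.75%), C/EBP TTGCGCAA (0.164%), a heat shock unit GAANNTTC (6.69%), STAT TTCNNNGAA (7.02%), the metal element TGCGCNC (12.5%) and NF-kB GGGANTTCC (1.43%). The AP-1 and antioxidant patterns can overlap. Windows were found for 26 of the 30 genes: 3 held the antioxidant element, 4 the metal element and 1 the E-box, and none of the 26 windows held any of the other 6 motifs. For these counts and for the printed sequences only the first listed window of a gene was used, so other starts were not searched. These are matches of letters in a short window and show no binding.

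Nsd2, a methyltransferase of histone H3 lysine 36, was at 260, 323, 276 and 387 in GX DMSO and at 504, 483, 514, 386 and 453 in GX MRL5. In WT it ran the other way, with 427, 388 and 490 in WT DMSO and 244 and 280 in WT MRL5. The WT groups did not overlap, and the GX groups touched at GX DMSO 4 and GX MRL5 4. The log2 effect was 0.59 (SE 0.125) in GX and -0.73 (SE 0.169) in WT, an interaction of 1.32 (SE 0.21) with an adjusted p of 0.185 by limma. Of all tested genes, 2690 (19%) had no overlap in WT only and 126 (0.89%) in GX only. A lack of overlap in WT, with 3 libraries against 2, was therefore common, here and for the genes below.

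Lcn2 encodes lipocalin 2, a secreted acute phase protein that binds iron carriers of bacteria. Its values were 70.5, 59.4, 37.4 and 49.9 in GX DMSO and 95.8, 161, 229, 386 and 215 in GX MRL5. They were 103, 170 and 181 in WT DMSO and 32.7 and 63.2 in WT MRL5. Neither genotype's groups overlapped, and WT DMSO lay within the range of GX MRL5. The interaction was 3.54 (SE 0.577, adjusted p = 0.185 by limma). With the 11 libraries of set 148 it was 2.79, with 1.63 in GX and -1.16 in WT.

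Ifi205, an interferon-inducible gene, differed mainly in WT. It was at 947, 1086 and 877 in WT DMSO and at 583 and 459 in WT MRL5, with no overlap. In GX it was at 964, 782, 726 and 988 with DMSO and at 946, 982, 1368, 997 and 999 with MRL5, where 4 of the 5 MRL5 values lay between 946 and 999, by the top of the DMSO range, and GX MRL5 3 stood above. The log2 effect was 0.29 (SE 0.129) in GX and -0.90 (SE 0.175) in WT.

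Fkbp5, a co-chaperone of steroid receptors and a standard glucocorticoid target, was at 463, 237, 244 and 294 in GX DMSO and at 474, 506, 578, 414 and 484 in GX MRL5. WT DMSO held 436, 439 and 375, and WT MRL5 held 246 and 248. GX DMSO 1 was the one GX DMSO library in the range of GX MRL5. The interaction was 1.46 (SE 0.277, adjusted p = 0.373 by limma), and without GX DMSO 1 it was 1.67 with an adjusted p of 0.00538. With library set as a covariate no gene was called, and the smallest adjusted p of any gene was 0.585 by limma.

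Hmox1, the inducible heme oxygenase that degrades heme, followed the same arrangement with more spread. It was at 300, 173, 129.4 and 180 in GX DMSO, at 308, 211, 578, 388 and 299 in GX MRL5, at 293, 317 and 254 in WT DMSO and at 130.7 and 158 in WT MRL5. The WT groups did not overlap and the GX groups did. The interaction was 1.84 (SE 0.439, adjusted p = 0.755 by limma). Of the remaining genes with positive values, Arhgef3, a guanine nucleotide exchange factor, had 656 to 784 in GX DMSO, 820 to 1007 in GX MRL5, 846 to 925 in WT DMSO and 538 and 787 in WT MRL5, with no overlap in either genotype.

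The 11 genes of the class with negative interactions included genes of heart muscle. Fbxl22, a cardiac F-box protein of the sarcomere, ran from 1614 to 1693 in GX DMSO and from 1134 to 1539 in GX MRL5, against 1002 to 1338 in WT DMSO, and 1450 and 1680 in WT MRL5. Its groups did not overlap in either genotype, and its interaction was -0.75 (SE 0.166). Sco2, which delivers copper to cytochrome c oxidase, was at 165 to 210 in GX DMSO, 117 to 167 in GX MRL5, 134 to 165 in WT DMSO and 210 and 227 in WT MRL5. Nfatc2, a transcription factor activated by calcineurin, was at 123 to 217, 84 to 142, 110 to 132, and 174 and 236 in the same order. Jph2, which couples the surface membrane to the sarcoplasmic reticulum, had an interaction of -0.48 (SE 0.15). Nkx2-5, a cardiac transcription factor, had -0.65 (SE 0.212). Their p inside WT was 0.0393 and 0.0493 by limma, just under the class limit of 0.05.

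**Figure D2:**
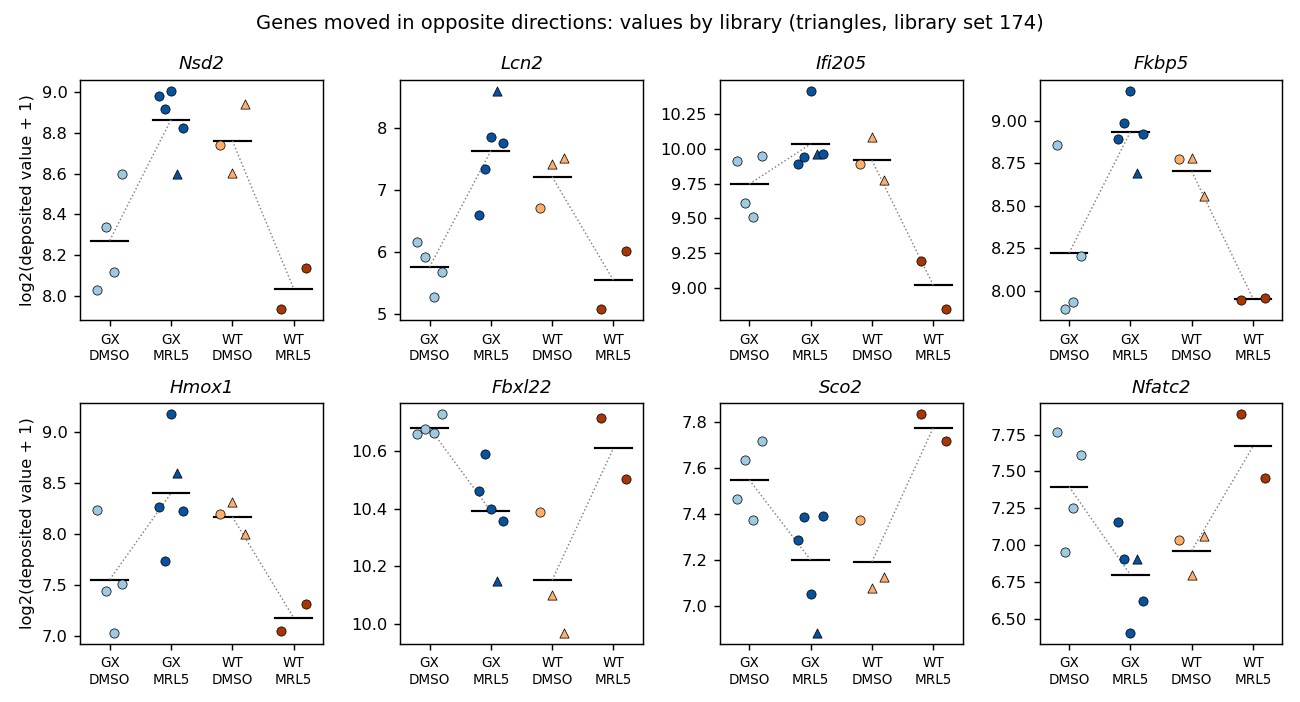
Values of 8 genes of the opposite class by library, as log2(deposited value + 1), with bars for the group means and dotted lines joining DMSO to MRL5 inside a genotype. Circles are library set 148 and triangles set 174. For Nsd2, Lcn2, Ifi205, Fkbp5 and Hmox1 the line runs up in GX and down in WT, and for Fbxl22, Sco2 and Nfatc2 the reverse. The WT DMSO means lie nearer GX MRL5 than WT MRL5.

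With no overlap required in both genotypes, in place of p, 18 of all tested genes (0.127%) differed in opposite directions and 12 in the same direction. Of the 30 genes of the opposite class, 6 met this: Lcn2, Fbxl22, Arhgef3, Cd2bp2, Pigx and 2810039B14Rik, the last 3 named after their values were seen. The DMSO groups of the 2 genotypes were also apart for most genes of the opposite class. In all 30 the DMSO difference, GX minus WT, had the sign opposite to the interaction. It had p under 0.05 by limma in 19 of them (63.3%), beside 5.67% of all tested genes. That share was 29.5% in the GX only class and 33.7% in the WT only class. For Lcn2 the GX DMSO mean was lower than WT DMSO by a log2 difference of -1.45, for Nsd2 by -0.49 and for Fkbp5 by -0.48, and for Fbxl22 it was higher by 0.53. These differences share the DMSO libraries with the interaction and are not separate evidence for it.

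The GX only class of 173 genes had 117 with a positive and 56 with a negative interaction. Their median size of effect was 0.493 in GX and 0.269 in WT, and in 171 of 173 the WT effect had the opposite sign. Genes of metal and heme handling were among those with the smallest p. Flvcr2, a membrane transporter of the heme exporter family, was at 90.3, 31.9, 35.6 and 52.2 in GX DMSO and at 114, 146, 98.8, 95.6 and 122 in GX MRL5, with no overlap. In WT it was at 93.3, 63.9 and 63.6 with DMSO and 43.2 and 66.3 with MRL5. The log2 effect was 1.22 in GX and -0.43 in WT, an interaction of 1.65 (SE 0.445).

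The metallothioneins Mt2 and Mt1, small metal-binding proteins, were both in this class. Mt2 was at 1183, 705, 546 and 774 in GX DMSO and at 1093, 2167, 3880, 2926 and 3057 in GX MRL5. In WT it was at 1341, 1722 and 751 with DMSO and at 452 and 1134 with MRL5, which overlap. GX MRL5 1 lay inside the GX DMSO range and the other 4 lay above it. The interaction was 2.39 (SE 0.664) for Mt2 and 0.70 (SE 0.234) for Mt1. Mt1 ran from 5393 to 8176 in GX DMSO, 8014 to 10180 in GX MRL5, 5117 to 7307 in WT DMSO, and 5005 and 6189 in WT MRL5. Cp, the copper-carrying ferroxidase ceruloplasmin, had an interaction of 0.53 (SE 0.169).

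Signalling genes of the class included Tnfrsf1a, a receptor for tumour necrosis factor. It ran from 198 to 257 in GX DMSO and from 275 to 384 in GX MRL5, with no overlap, against 218 to 264 in WT DMSO, and 199 and 259 in WT MRL5. Bmp4, a growth factor, ran from 66.7 to 117 in GX DMSO and from 124 to 204 in GX MRL5, with no overlap, against 111 to 173 in WT DMSO, and 114 and 136 in WT MRL5. The WT effects were -0.11 (SE 0.167) and -0.08 (SE 0.254) on the log2 scale, each smaller than its error. E2f8, a repressor of cell cycle genes, was low throughout and ran from 3.34 to 10.7 in GX DMSO and from 12 to 35.6 in GX MRL5, against 13.8 to 38.9 in WT DMSO, and 12.1 and 15.0 in WT MRL5. Mtx1, part of the import machinery of the outer mitochondrial membrane, was among the 56 with a negative value. It ran from 253 to 308 in GX DMSO and from 181 to 253 in GX MRL5, with an interaction of -0.64 (SE 0.187).

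The WT only class of 415 genes had 193 with a positive and 222 with a negative interaction. The median size of effect was 0.514 in WT and 0.128 in GX, and the median size of the interaction was 0.648. In 389 of 415 the GX effect had the opposite sign to the WT effect and so added to the interaction. Ppp1r9a, a scaffold of protein phosphatase 1, was at 129.4, 153 and 154 in WT DMSO and at 85 and 83.9 in WT MRL5. GX held it at 79.2 to 117 with DMSO and 105 to 133 with MRL5. Its interaction was 0.98 (SE 0.214, adjusted p = 0.755 by limma).

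Amd1, which makes the donor for polyamine synthesis, was at 4662, 5373 and 4971 in WT DMSO and 3028 and 3377 in WT MRL5. It ran from 2885 to 4591 in GX DMSO and 3554 to 4948 in GX MRL5, which overlap. The interaction was 0.76 (SE 0.212). Amd2, a near-identical copy, had 1.00 (SE 0.399), and the division of reads between the copies is not stated in these sources.

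Zc3h6, a zinc finger gene, was at 84.7, 117 and 129.1 in WT DMSO and 321 and 184 in WT MRL5, against 79.1 to 131.2 in GX DMSO and 105 to 126 in GX MRL5. The GX effect was 0.01 (SE 0.183) and the WT effect 1.16 (SE 0.249). Star, which brings cholesterol into mitochondria for steroid synthesis, was at 18.4 to 30.9 in WT DMSO and 42.6 and 58.9 in WT MRL5, with GX between 18.1 and 32.6 in both groups. Ms4a6d, a macrophage membrane gene, and Syn2, a synaptic vesicle protein, had interactions of 1.23 (SE 0.319) and 1.12 (SE 0.284). Gnpda1, an enzyme of hexosamine breakdown, had -1.02 (SE 0.25), with WT MRL5 at 469 and 266. The WT MRL5 libraries thus often lay apart from each other, and a mean of 2 carries each of these values. Without WT MRL5 1 the interaction was -0.74 for Zc3h6 and -0.61 for Gnpda1, and outside this class 0.50 for Arhgef3, -0.38 for Nkx2-5 and 1.31 for Serpina3n.

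**Figure D3:**
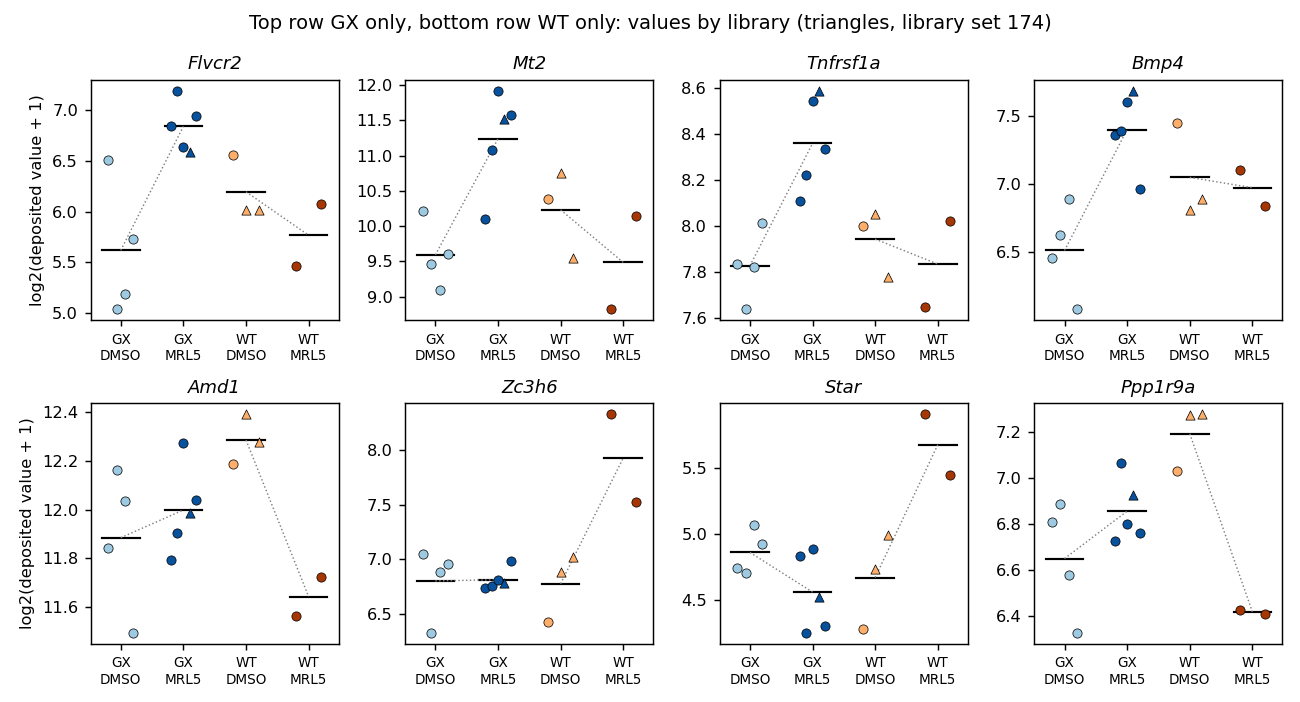
Values by library as log2(deposited value + 1) for 4 genes of the GX only class (top) and 4 of the WT only class (bottom), with bars for group means and triangles for library set 174. In the top row the GX groups are apart or nearly so while the WT groups overlap, as in Bmp4 with WT at 111 to 173 and at 114 and 136. In the bottom row the GX groups overlap while the WT groups are apart.

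Rrad, a small GTPase that restrains calcium channels, served as a contrast, because the authors' deposited table gave it a low q in WT. It ran from 1839 to 2341 in WT DMSO and lay at 3447 and 3721 in WT MRL5, and ran from 1827 to 2052 in GX DMSO and from 2095 to 4879 in GX MRL5. The groups did not overlap in either genotype, both effects were positive (0.65, SE 0.196, in GX and 0.83, SE 0.266, in WT), and the interaction was -0.18 (SE 0.33, adjusted p = 0.913 by limma). In the authors' deposited table Rrad had a q of 0.000139 in WT and of 1 in GX. The same holds for the genes above: in the authors' deposited table Hmox1 had q = 4.42e-05 in WT and 1 in GX, Fkbp5 0.00723 and 0.66, and Ifi205 0.000813 and 1. In that table Lcn2 had q = 0.0601 in GX and 0.497 in WT, with effects of 1.31 and -1.17 on the natural log scale. A q that passes in 1 genotype and misses in the other therefore went with an interaction near 0 for Rrad and with effects of opposite sign for Hmox1, Fkbp5, Ifi205 and Lcn2.

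Gene lists were described by the median interaction of their tested members, beside a median of 0.02 over all genes. Counts of positive members stand beside 52.2% of all tested genes with a positive interaction. The members of a list are not independent replicates. The inflammatory and acute phase list had 28 of 33 members positive, a median of 0.64, and 7 members with p under 0.05, each positive, beside 3.09% of all genes in that direction. Its median effect was 0.61 in GX and 0.01 in WT. The 7 were Lcn2, Tnfrsf1a, Serpina3n (a protease inhibitor of the acute phase, 2.11, SE 0.703) and, named after their values were seen, Osmr, Csf1, Il1r1 and Steap4. Osmr, the receptor for oncostatin M, ran from 262 to 297 in GX DMSO and from 249 to 647 in GX MRL5, against 220 to 338 in WT DMSO, and 190 and 205 in WT MRL5. The mean log2 level of the list was 6.06 to 6.30 in GX DMSO and 6.08, 6.83, 8.26, 7.39 and 6.70 in GX MRL5. GX MRL5 1 was at the DMSO level and GX MRL5 3, the library with the high Hspa1a, was the highest. In WT the list was at 6.13, 6.61 and 6.10 with DMSO and 6.25 and 6.19 with MRL5. Without GX MRL5 3 the median was 0.53, without GX MRL5 3 and WT DMSO 2 it was 0.39, and in set 148 it was 0.41. Neutrophil markers were low, with a mean log2 level of 1.81 to 3.91 over the libraries and 4 of 11 tested. Macrophage and monocyte markers had 7 of 14 positive and ran from 7.47 to 7.84 in GX DMSO and from 7.69 to 8.38 in GX MRL5. Their part in the inflammatory result was not tested. RNA from fewer cells of a type and less RNA per cell cannot be told apart in bulk tissue.

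Glucocorticoid receptor targets had 16 of 25 members positive and a median of 0.21. The 4 with p under 0.05, each positive, were Lcn2, Fkbp5, Mt2 and Mt1, beside 3.09% of all genes in that direction. The list shares Mt1 and Mt2 with the metallothionein list, where the other 7 members had p of 0.05 or over. The median was 0.52 without GX DMSO 1, 0.44 without GX MRL5 4, 0.11 without GX DMSO 2 and 0.14 without GX MRL5 1 or WT DMSO 2, and 0.53 with library set as a covariate. Circadian clock genes, whose levels vary over the day, had 17 of 22 positive, a median of 0.18 and no member with p under 0.05. Heme and iron genes had 3 positive (Hmox1, Flvcr2 and Cp) and 1 negative member with p under 0.05 among 18. Over all genes these shares were 3.09% positive and 3.29% negative. The heme and iron list had a median of 0.16. That median was 0.05 without WT DMSO 2 or without WT MRL5 1, 0.07 without GX DMSO 1, 0.08 without GX MRL5 4, 0.10 without GX DMSO 4, 0.27 without GX DMSO 2, 0.07 in set 148 and 0.02 with library set as a covariate.

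Nuclear genes of oxidative phosphorylation went the other way. Of 29, 24 were negative, the median was -0.33, and 5 had p under 0.05, each negative, beside 3.29% of all genes in that direction. The median effect was -0.08 in GX and 0.23 in WT. Cox4i1, a subunit of cytochrome c oxidase, was at 27120, 20520 and 24260 in WT DMSO and 40890 and 28060 in WT MRL5. It ran from 26280 to 41360 in GX DMSO and 24550 to 36580 in GX MRL5. WT MRL5 1 and GX DMSO 4 held the high values, at a mean log2 level of the list of 13.49 and 13.72 against 13 to 13.43 in the other 12. Without GX DMSO 4 the median was -0.22, without WT MRL5 1 it was -0.23 and in set 148 it was -0.19. Cytosolic ribosomal protein genes had 27 of 32 negative and a median of -0.25, which was -0.07 without GX DMSO 4 and -0.14 without WT MRL5 1. Glycolysis genes had 17 of 19 negative and a median of -0.19, which was -0.11 without WT DMSO 2 and -0.02 in set 148. The 13 mitochondrially encoded genes had a median of -0.03.

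For channels and conduction the values were small. The voltage-gated sodium channel list had 11 members tested and a median of 0.07. In it 1 member had p under 0.05, which was positive, beside 3.09% of all genes in that direction. The median was 0.05 for potassium channels and -0.06 for calcium handling, with Jph2 as the member of smallest p. Among the 86 genes that the authors marked as conduction genes, 47 were positive, the median was 0.05, and 7 had p under 0.05 (4 positive, 3 negative), beside 6.39% of all genes. Among the 7 were Nkx2-5 and Atp2b3, a calcium pump of the plasma membrane at 1.34 to 14.1 in every library. Tbx3, a transcription factor of the conduction system, had 0.58 (SE 0.201), and Hcn2, a pacemaker channel, -0.55 (SE 0.248).

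The medians of several lists moved with single libraries or with the library set. Atrial markers had 9 of 10 positive and a median of 0.48, which turned to -0.12 without WT DMSO 2, lay between 0.25 and 1.13 without any other single library and was -0.13 in set 148. Adipocyte markers had a median of 2.04 over the 4 members tested, which lay between 0.57 and 3.52 with single libraries left out and turned to -0.08 with library set as a covariate. Erythroid markers were positive for 10 of 10 with a median of 0.61. The beta globin gene Hbb-bs, whose reads may be shared with its neighbouring copy, had 0.71 (SE 0.315). Erythroid levels were 8.12 to 8.61 in GX DMSO and 8.21 to 9.09 in GX MRL5, and the median was 0.37 without WT DMSO 2 and 0.54 in set 148. The list of growth factors of the BMP and TGF-beta family had a median of 0.31, which was 0.17 without WT MRL5 1, 0.58 without GX DMSO 3, 0.55 without WT DMSO 3, 0.59 without WT MRL5 2 and 0.07 in set 148. In it Bmp4 (0.96, SE 0.315) and Fstl3, an activin inhibitor (0.80, SE 0.37), were positive, and Bmp6 (-0.72, SE 0.264) was negative.

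**Figure D4:**
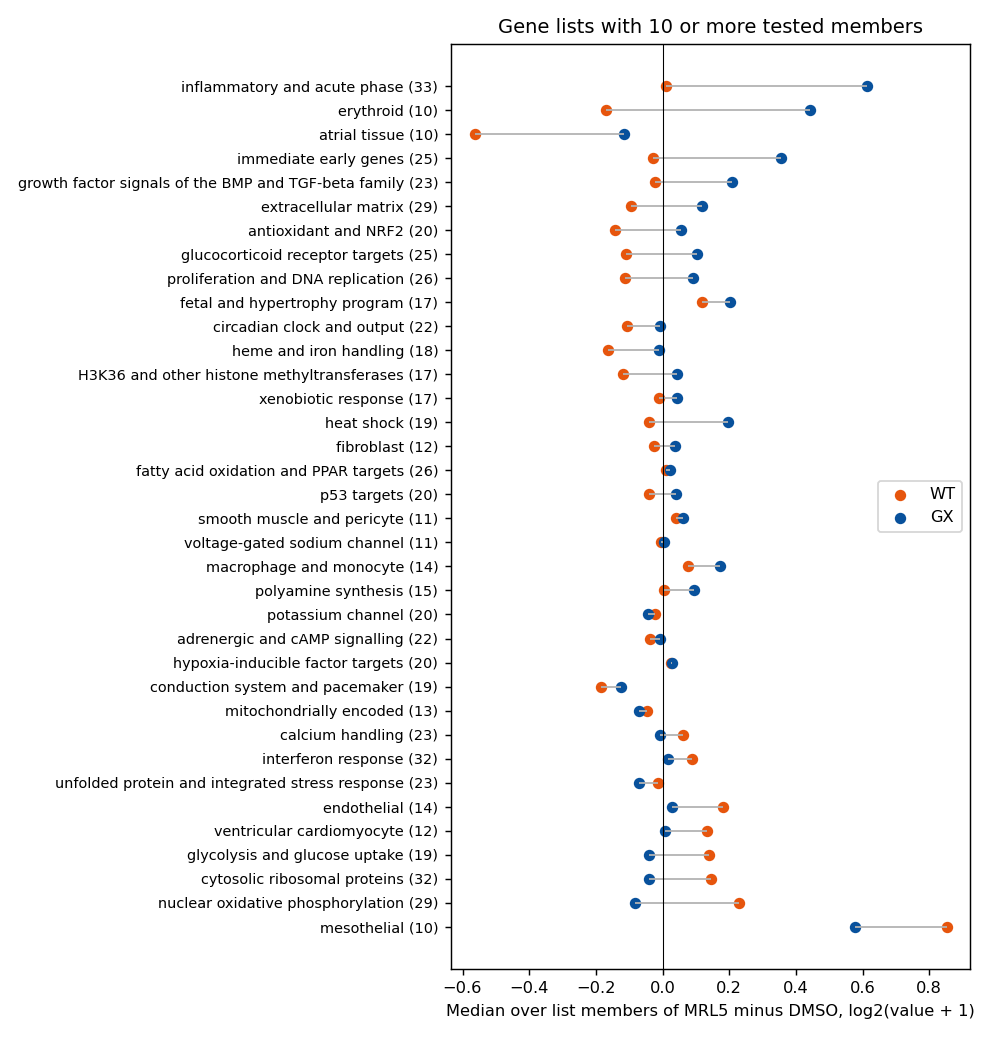
Median over list members of MRL5 minus DMSO on the log2(value + 1) scale in GX (blue) and WT (orange) for lists with at least 10 tested members, ordered by median interaction, with the number tested in brackets. The inflammatory list lies at 0.61 in GX and 0.01 in WT, and nuclear oxidative phosphorylation at -0.08 and 0.23. No test was run on these medians.

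The class sizes turned on a few libraries. Without WT MRL5 1 the number of genes with an unadjusted interaction p under 0.05 was 366, and without WT MRL5 2 it was 2301. The WT only class held 124 and 1735 genes in those fits, in which the lone WT MRL5 library is assumed to vary like the other groups. Without WT MRL5 2, limma called 27 genes, among them Lcn2, Arhgef3, Nsd2 and Gnpda1, and without WT MRL5 1 it called 0. Without GX MRL5 1 the GX only class held 401 genes and the opposite class 75. Of the 30 genes of the opposite class, 28 had an interaction p under 0.05 with library set as a covariate and 21 in set 148 alone, where 3 stayed in the class. Of the 173 GX only genes, 49 had an interaction p under 0.05 in set 148, and of the 415 WT only genes, 126. Nsd2, Lcn2, Ifi205 and Fkbp5 had interactions of 1.37, 2.79, 1.18 and 1.59 there. In that set the WT comparison rests on 1 DMSO and 2 MRL5 libraries.

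**Figure D5:**
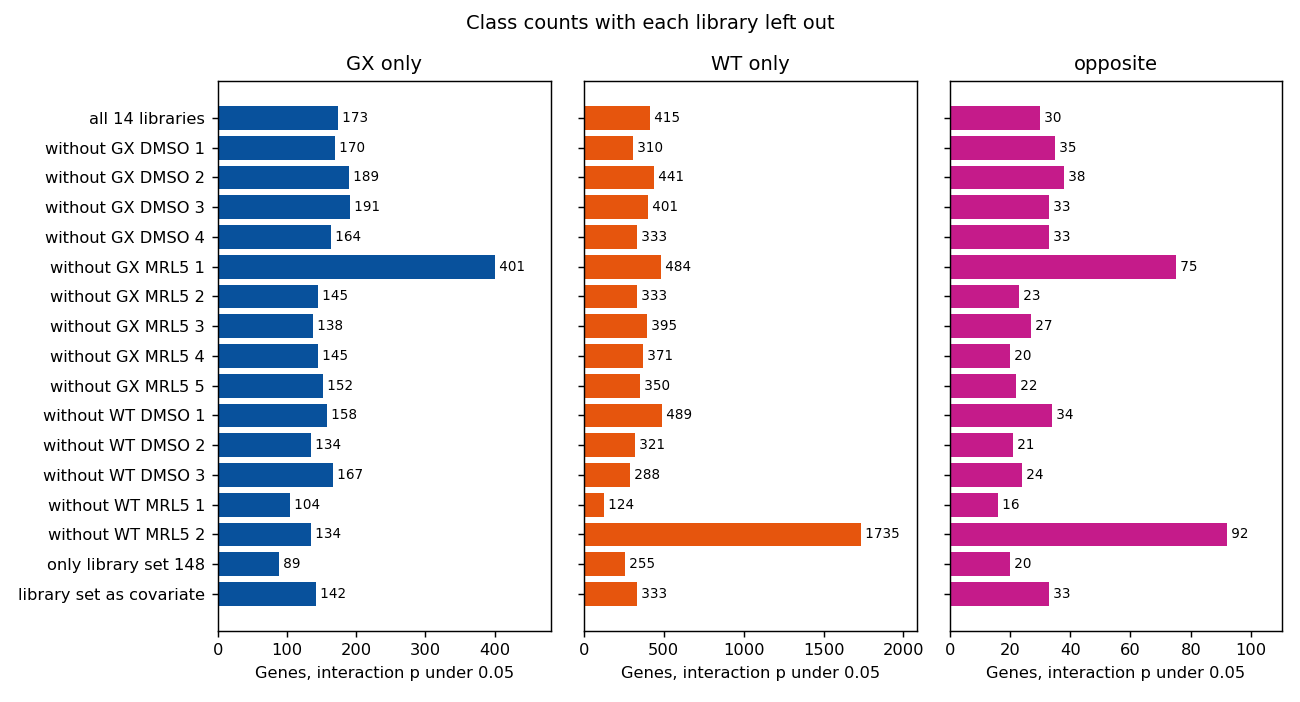
Number of genes in the GX only, WT only and opposite classes with all 14 libraries, with each library left out, in set 148 alone and with library set as a covariate. The x axis counts genes with an unadjusted interaction p under 0.05 and starts at 0. The WT only bar runs from 124 without WT MRL5 1 to 1735 without WT MRL5 2.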

How the data were processed

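Polyadenylated RNA of 14 ventricles was sequenced as paired-end libraries, per the labels' protocols. Per the submitters' processing notes, kallisto and sleuth 0.3.0 were used with mouse build GRCm38. The authors deposited 1 signal value per gene and library, named scaled reads per base in the table's header. The sources used here do not state how the values were scaled, which annotation release was used or what was filtered. The authors' p-values and q-values within GX and within WT, and their natural log (ln) effects, stand in the same table per the file headers. Of 14307 entries, 146 with values identical to another entry were left out, and 22 symbols turned into dates were restored. The unit is not counts, so no count test was run, and depth is unknown.

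Values were not rescaled. Genes with a value of at least 1 in at least 2 libraries were fitted on log2(value + 1) with R 4.3.3 and limma 3.58.1 (moderated variance with a trend, robust), 1 mean per group over 14 libraries and 10 residual degrees of freedom. Fold changes of low genes are understated on this scale. The interaction and both genotype effects are contrasts of this fit. Tests are two-sided, called at a Benjamini-Hochberg adjusted p under 0.05. SE values are limma's moderated ones. The fit was tested on simulated data. P-values measure the spread between mice.

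The genes named were the 30 of smallest interaction p, 8 of each class, 3 of each of 42 lists and those with an authors' q under 0.1, skipping predicted genes. Not all are printed, and some single-gene results are left out of the text. The classes, lists and motifs were chosen with earlier results of these data known. Replicate numbers are in accession order and pair nothing. Promoter windows are from RefSeq, GRCm38.p6, 250 bases before each start. Alternatives were other scalings, filters, pseudocount 0.1, library set or index covariates, set 148 alone, no trend, array weights, each library left out, and other class rules.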

Additional observations from a re-analysis of the deposited data

Results flagged for a closer look

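In the 2 groups with 4 or 5 libraries, each of 66 genes was searched for a library far from the others by Dixon's gap over range, on log2(value + 1). Of 132 searches 7 passed, and chance gives about 1 in 20. In GX DMSO, Serpina3n was at 593 in GX DMSO 1 (256 to 273 in the others), Fam49a at 51.1 and Pfkl at 547 in GX DMSO 2, and Snu13 at 613 in GX DMSO 4. In GX MRL5, Ifi205 was at 1368 in GX MRL5 3, Nkx2-5 at 1514 in GX MRL5 1 and Ccr2 at 106 in GX MRL5 4. GX DMSO 1 thus held Serpina3n within the GX MRL5 range of 512 to 1075, and GX MRL5 1 held Nkx2-5 within the GX DMSO range of 1212 to 1749.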

How the results depend on the processing

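With values scaled to equal column sums, which moved the median interaction of all genes from 0.0164 to 0.0714, limma called 1 gene, Nsd2 (1.38, adjusted p = 0.0149). With library set as a covariate limma called 0 genes, and the smallest adjusted p was 0.585. With library set and index series as covariates it also called 0, and the smallest was 0.951. Leaving out single libraries gave 0 to 27 called genes, 366 to 2301 with an unadjusted interaction p under 0.05, 104 to 401 in the GX only class, 124 to 1735 in the WT only class and 16 to 92 in the opposite class. With p under 0.01 inside each genotype the GX only, WT only and opposite classes held 63, 97 and 4 genes, and with no overlap in place of p they held 48, 576 and 16. Set 148 alone gave 516 genes, with 89 GX only and 255 WT only. Array weights gave 271 WT only. Of the alternatives chosen after seeing the data, leaving out GX MRL5 3 and WT DMSO 2 gave 106 GX only, and an added size of at least 1 on the log2 scale gave 237 genes. The cause of these shifts was not tested. The correlation of the GX and WT effects across genes ran from -0.193 with library set as a covariate to -0.0452 without GX MRL5 4. With that covariate both effects draw on the same estimate of the set difference, with opposite signs. The value of -0.193 is therefore not directly comparable with fits that lack the covariate. The 4 libraries of index 0, 1 per group, gave values with no test: 2.78 for Lcn2, 0.831 for Nsd2 and 1.53 for Fkbp5. No paired analysis was possible because the replicate numbers only name the libraries in the order of their records.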

Other observations

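Among genes of the extracellular matrix, Lox, which cross-links collagen, had an interaction of 1.07 (SE 0.395) and belonged to the GX only class, and Has2, which makes hyaluronan, had 2.06 (SE 0.842). Has2 was at 7.06 to 13.8 in GX DMSO, 12.4 to 31.4 in GX MRL5 and 8.05 to 21.7 in WT DMSO, and at 0.942 in WT MRL5 1 and 14.0 in WT MRL5 2. Thbs2, a matrix glycoprotein, had 0.46 (SE 0.197) and belonged to the WT only class. The list had 23 of 29 members positive and a median of 0.24. Without WT MRL5 1 the interaction was 0.58 for Has2, 0.59 for Lox and 0.25 for Thbs2, and the median was 0.10. The median was also 0.13 without WT DMSO 1 or without WT DMSO 2, 0.14 without GX DMSO 1 or without GX MRL5 3, 0.37 without WT MRL5 2 and 0.05 in set 148, and it turned to -0.04 with library set as a covariate. Of 14 macrophage and monocyte markers, 7 had a positive and 7 a negative interaction, with a median of 0.06. Mrc1 and Ccr2 were the 2 with p under 0.05, both positive, beside 3.09% of all genes in that direction. Mrc1, a mannose receptor, was at 251 to 315 in GX DMSO, 312 to 615 in GX MRL5, 343 to 559 in WT DMSO, and 241 and 364 in WT MRL5. Ccr2, a monocyte chemokine receptor, was at 45.9 to 76.1 in WT DMSO and 20.7 and 40 in WT MRL5. The immediate early gene Egr3 reached 241 in GX MRL5 3, against 10.7 to 54.7 in the other GX MRL5 libraries and 9.03 to 33.5 in GX DMSO. None of these passed limma's test over all genes, and each had an adjusted p of 0.755.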
